A study of Homo sapiens with 9 samples.

Results

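Expression of 34 genes of the complement system was followed in HepG2 cells under the 2 treatments that the study used as models of fatty liver, DNL and OA, and in its untreated cells, WT. The genes were chosen by name, as components of the cascade, its soluble and membrane-bound regulators, and the receptors for its cleavage fragments. All 34 had an entry among the 19317 gene identifiers of the deposited table, and 28 had enough counts to enter the test of 13636 genes. HepG2 is an established line of human hepatocellular carcinoma cells, and the cells of every group carried the same unmodified genotype. DNL libraries (de novo lipogenesis, n = 3) came from cells kept for 1 week in DMEM that contained insulin at 10 µg/ml and T0901317, a synthetic agonist of the liver X receptors, at 10 µM. OA libraries (oleic acid, n = 3) came from cells kept for 6 hours in DMEM that contained oleic acid at 25 µM, with a carrier solution of 11% bovine serum albumin in saline. WT libraries (n = 3) came from cells in RPMI medium. Serum at 10% and antibiotics at 1% were common to the 3 media. Medium, additive and duration change together between the groups, and no group received albumin alone, so their parts in a difference cannot be told apart. A treatment field shared by all samples repeats the DNL recipe, and the groups were therefore read from titles and from the treatment recorded for each sample.

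Complement is a cascade of plasma proteins in which proteases are activated in turn, entered through antibody-bound C1 (the classical route), through lectins that bind sugars on microbes, or through spontaneous turnover of C3 (the alternative route). The routes meet at the cleavage of C3, and cleavage of C5 then starts the terminal complex that forms a pore in membranes. The liver makes most of the circulating components, and regulators in plasma and on cell surfaces keep the cascade from attacking host cells.

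DNL libraries held 16447398 to 36147431 counts, OA libraries 7836520 to 28636903 and WT libraries 26425694 to 43043347. Levels are given as CPM, counts scaled with TMM to a common library total. A library without a count could still hold up to 3 counts' worth of a transcript, 0.0691 to 0.356 CPM depending on the library. These limits cover counting error only. Libraries of a group resembled each other more than those of other groups, with correlations of log2 CPM across genes of at least 0.982 within groups and at most 0.964 between groups. The 10 hepatocyte and HepG2 markers examined were expressed in every library, and ALB, the gene of serum albumin, had 6930 to 7587 CPM in DNL libraries, 1536 to 1787 CPM in OA libraries and 5935 to 6128 CPM in WT libraries. Relative to WT, 8 of these 10 markers were called higher in DNL and 1 lower, and 0 were called higher in OA and 9 lower, where 27.1% and 26.8% of all genes tested were higher and lower in DNL, and 30.4% and 29.7% in OA. The macrophage genes CD163 and MARCO had no count in any library. The 5 endothelial markers examined summed to 5.27 to 6.92 CPM in DNL libraries, 0.988 to 2.14 CPM in OA libraries and 1.52 to 1.96 CPM in WT libraries, and 5 fibroblast and stellate markers to 2.96 to 3.39, 34.2 to 808 and 10.8 to 14.9 CPM in DNL, OA and WT libraries. The OA libraries differed from each other in fibroblast collagens: COL1A1 had 19.3, 85.0 and 537 CPM in OA replicates 1, 2 and 3, against at most 0.99 CPM in each DNL and WT library, and COL1A2 had 10.2, 41.1 and 260 CPM in OA and no count elsewhere. The collagens made up most of the fibroblast and stellate sum in every OA library, and the other genes of that list differed among themselves. PDGFRB was called lower in OA than in WT (log2 fold change -1.10), and DCN was not called (0.77). LUM, not tested, had no count in DNL and WT libraries and 0, 0.264 and 0.713 CPM in OA replicates 1, 2 and 3. Within OA, PDGFRB, DCN and LUM were, like the collagens, highest in replicate 3. The part of the hepatocyte, endothelial, fibroblast and stellate markers in the results below was not tested. In bulk RNA, fewer cells of a kind and less RNA per cell cannot be told apart.

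Complement transcripts were more abundant in DNL than in WT and less abundant in OA, but members of the cascade moved in different directions within DNL. The summed level of the 34 genes was 11260 ± 298 CPM in DNL, 3008 ± 97.8 CPM in OA and 5955 ± 160 CPM in WT (SD, n = 3 each), and C3 alone made up 72.9% to 74.6% of the sum in DNL libraries, 59.4% to 60.3% in OA libraries and 62.3% to 62.8% in WT libraries. DNL was set against WT for 28 members (edgeR quasi-likelihood test, Benjamini-Hochberg adjusted p under 0.05): 14 rose and 8 fell, beside 27.1% and 26.8% of all genes tested, or 53.8% in either direction. OA was set against WT in the same way: 2 of the 28 rose and 17 fell, beside 30.4% and 29.7% of all genes tested, or 60% in either direction. In the direct comparison of the treatments, DNL exceeded OA for 22 of the 28 and was below OA for 2, beside 31.9% and 30.9% of all genes tested, or 62.8% in either direction. The median log2 fold change of the tested members was 0.52 in DNL and -0.82 in OA relative to WT, and 1.67 in DNL relative to OA, beside medians over all genes of -0.02, -0.03 and 0.01. When a change of at least 2-fold was required as well, 11 members rose in DNL relative to WT and 3 fell, beside 7.21% and 5.07% of all genes tested (12.3% in either direction). In OA relative to WT 0 members then rose and 10 fell, beside 8.88% and 7.95% (16.8% in either direction), and in DNL relative to OA 17 were above and 2 below, beside 10.1% and 9.94% (20.1% in either direction). DNL and OA are set against the same WT libraries, so the 2 comparisons are not independent. Only 28 of the 34 members passed the filter on low counts, and a gene silent in most libraries could pass it through 1 group. CFB, with most of its counts in DNL and none in OA, is among the members counted as above OA.

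**Figure D1:**
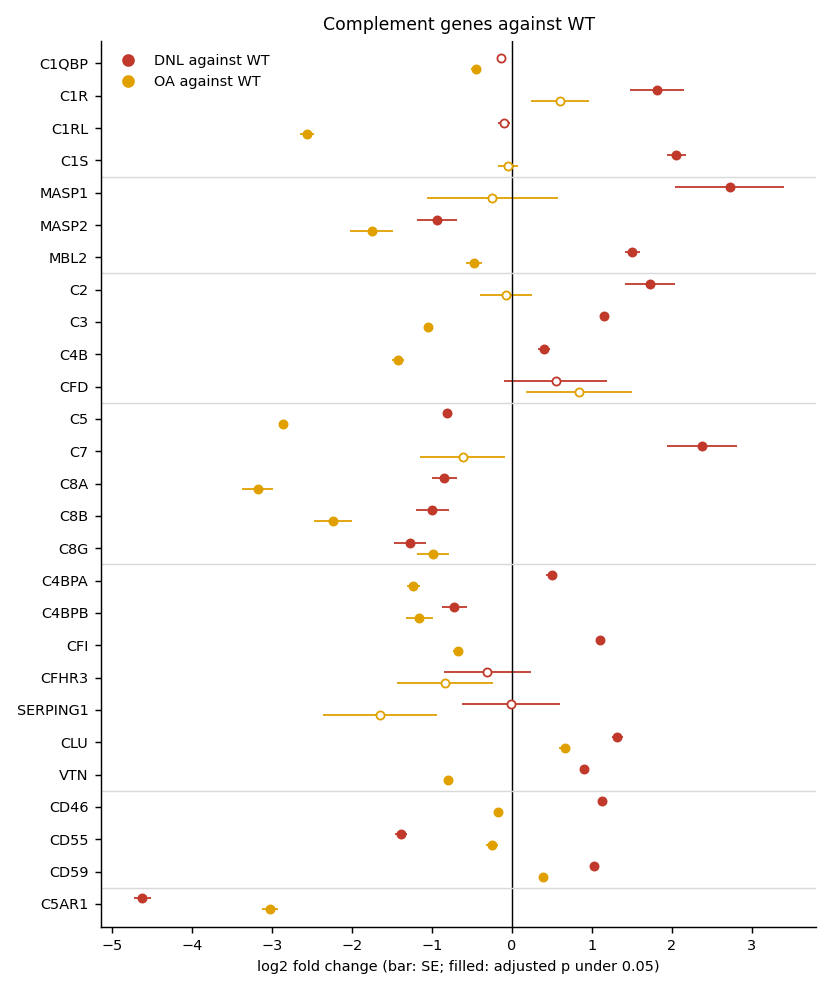
Log2 fold change (x axis) of the tested complement genes, one row per gene in order of role, in DNL against WT (red) and in OA against WT (orange), with bars of 1 standard error. Filled points have an edgeR adjusted p under 0.05, and CFB is left out because its fit rests on a group with no counts. C3, C4B, C4BPA, CFI, MBL2, VTN and CD46 lie right of 0 in DNL and left of 0 in OA, and C5AR1 lies farthest left in DNL.

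In the classical route, transcripts of both C1 proteases, C1R and C1S, were higher in DNL than in WT, and neither was called in OA. C1S, the protease of the C1 complex that cleaves C4 and C2 (chromosome 12, 6988259 to 7071032, plus strand, GRCh38), had 35.8, 37.7 and 40.7 CPM in DNL, 10.5, 8.01 and 8.19 CPM in OA, and 8.56, 10.3 and 8.67 CPM in WT. Every DNL library lay above all others, and the OA and WT libraries overlapped. C1S was 4.16-fold higher in DNL than in WT (log2 fold change 2.06, SE 0.115, adjusted p = 1.08e-08), and in OA the log2 fold change was -0.05 (SE 0.126, adjusted p = 0.755). C1R, which activates C1S, was at 2.40 to 2.62 CPM in DNL, 0.79 to 1.28 CPM in OA and 0.437 to 0.914 CPM in WT. The difference of DNL from WT for C1R was 1.81 on the log2 scale (SE 0.34, adjusted p = 0.000584). C1RL, a protease related to C1R that has been found to cleave the haptoglobin precursor, had another pattern, with 48.5, 46.6 and 46.9 CPM in DNL, 7.50, 8.60 and 10.1 CPM in OA, and 51.4, 50.6 and 50.9 CPM in WT. The DNL and WT values lay close together and far above OA. C1RL fell 5.91-fold in OA (log2 fold change -2.56, SE 0.0881, adjusted p = 1.09e-10), and in DNL its log2 fold change was -0.11 (SE 0.0737, adjusted p = 0.248). C1R and C1RL share 672 exonic bases on the same strand, 11.4% of the exonic bases of C1R and 13.4% of those of C1RL, so the estimator may have divided some reads between them. C1QBP, a mainly mitochondrial protein first described as a binder of C1q, had 127, 125 and 113 CPM in DNL, 104, 95.7 and 91.2 CPM in OA, and 139, 132 and 128 CPM in WT. The 3 groups did not overlap, with OA lowest. C1QBP was lower in OA than in WT (log2 fold change -0.46, SE 0.0624, adjusted p = 3.37e-05), and its difference of -0.13 in DNL was not called (SE 0.061, adjusted p = 0.0847).

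**Figure D2:**
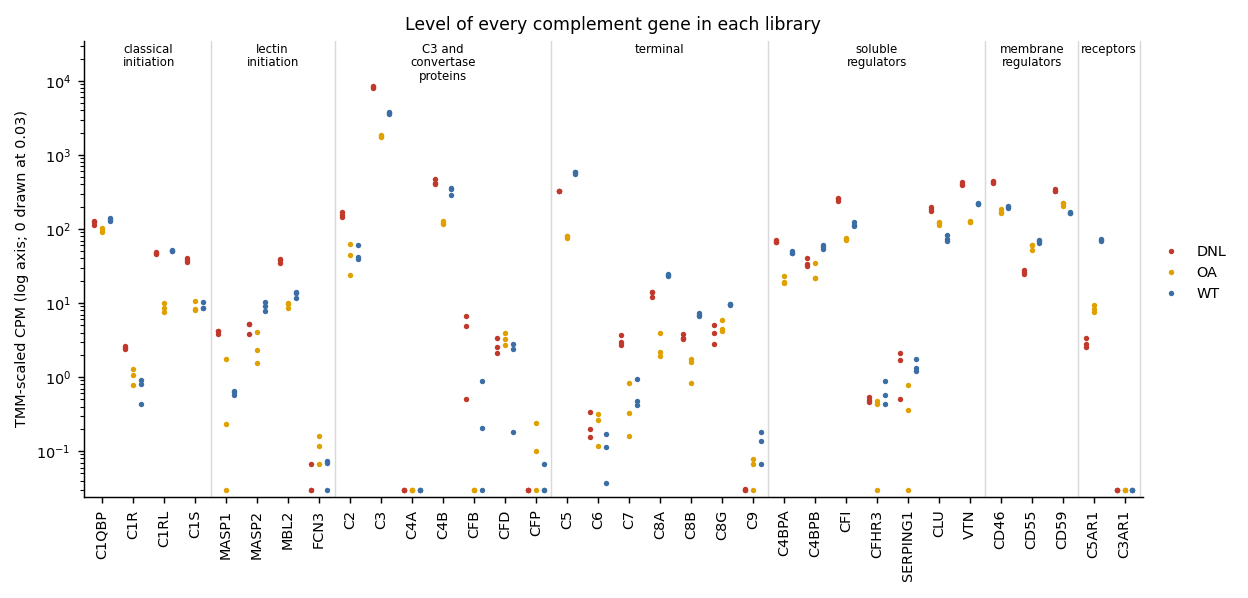
Level in CPM (log10 axis) of each of the 34 complement genes in every library, with DNL, OA and WT points side by side and genes grouped by role. Libraries with no count are drawn at 0.03 CPM. C3 lies highest in all 9 libraries, and C4A and C3AR1 have no count in any of them.

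In the lectin route, the sugar-binding protein and 1 of its proteases were higher in DNL, and the other protease was lower in both treatments. MBL2, mannose-binding lectin (chromosome 10, 52765380 to 52771700, minus strand), had 35.0, 38.0 and 39.3 CPM in DNL, 9.87, 9.65 and 8.67 CPM in OA, and 13.6, 14.1 and 11.8 CPM in WT. All 3 groups were separate, in the order DNL, WT, OA from high to low. MBL2 was 2.84-fold higher in DNL than in WT (log2 fold change 1.51, SE 0.0942, adjusted p = 3.07e-08) and lower in OA (log2 fold change -0.48, SE 0.103, adjusted p = 0.00142). MASP2, the lectin-route protease that cleaves C4 and C2, had 5.14, 3.79 and 5.15 CPM in DNL, 4.11, 2.34 and 1.54 CPM in OA, and 10.4, 9.04 and 7.90 CPM in WT. Every WT library was above those of both treatments, and DNL and OA overlapped. MASP2 fell by 0.94 on the log2 scale in DNL (SE 0.25, adjusted p = 0.00639) and by 1.76 in OA (SE 0.271, adjusted p = 9.97e-05). MASP1, whose products include the protease that activates MASP2, was at 3.86 to 4.20 CPM in DNL, 0 to 1.78 CPM in OA and 0.576 to 0.645 CPM in WT, and was 6.60-fold higher in DNL than in WT (log2 fold change 2.72, SE 0.679, adjusted p = 0.00641). Within OA, MASP1 had no count in replicate 1 (limit 0.237 CPM), 0.231 CPM in replicate 2 and 1.78 CPM in replicate 3. Like the collagens, MASP1 was highest in replicate 3, but replicates 1 and 2 cannot be ordered. Its log2 fold change in OA was -0.25 with all libraries (adjusted p = 0.811) and -1.96 without OA replicate 3 (adjusted p = 0.00971). FCN3, ficolin-3, another lectin that recruits these proteases, was not tested, with 1 count over the DNL libraries, 5 over the OA libraries and 5 over the WT libraries.

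C3 and the proteins that form its convertases held the most abundant transcript of the system. C3 (chromosome 19, 6677704 to 6730562, minus strand), the protein at which the routes meet, had 8567, 8375 and 7965 CPM in DNL, 1850, 1803 and 1745 CPM in OA, and 3807, 3737 and 3633 CPM in WT. Each group occupied a narrow range of its own. C3 was 2.23-fold higher in DNL than in WT (log2 fold change 1.16, SE 0.0398, adjusted p = 1.2e-10) and 2.07-fold lower in OA than in WT (log2 fold change -1.05, SE 0.0398, adjusted p = 2.55e-10). C2, the protease subunit of the classical and lectin C3 convertase, had 172, 144 and 153 CPM in DNL, 63.4, 44.3 and 24.2 CPM in OA, and 42.1, 39.2 and 60.9 CPM in WT. DNL stood clear of the other groups, whose libraries spread widely and overlapped. C2 was 3.31-fold higher in DNL than in WT (log2 fold change 1.73, SE 0.313, adjusted p = 0.00314) and was not called in OA (log2 fold change -0.08, SE 0.324, adjusted p = 0.853).

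The partner of C2 in that convertase is C4, encoded by the near-identical genes C4A (chromosome 6, 31982024 to 32002681, plus strand) and C4B (32014795 to 32035418, plus strand). C4A was listed at 0 in all 9 libraries, and C4B had 424, 473 and 408 CPM in DNL, 129, 118 and 122 CPM in OA, and 356, 343 and 292 CPM in WT. DNL was highest and OA lowest with no overlap. C4B was 1.31-fold higher in DNL than in WT (log2 fold change 0.40, SE 0.0758, adjusted p = 0.0011) and 2.69-fold lower in OA (log2 fold change -1.43, SE 0.0799, adjusted p = 5.68e-08). The longest coding transcripts of the genes in GENCODE release 29 differed at 13 of 5427 aligned bases (99.76% identity). Over all coding transcripts of each gene, 95.4% of the 31-base words of C4A also occurred in C4B. The stretch that tells the copies apart best, in coding exon 26, is shown for both (GRCh38, plus strand, chr6:31996077-31996106 for C4A and chr6:32028815-32028844 for C4B), with the 5 differing bases in capitals.
C4A: aggaccCctGtccagtgTtaGaCaggagca
C4B: aggaccTctCtccagtgAtaCaTaggagca
With so few distinguishing bases, the zero of C4A and the level of C4B are uncertain as a split between copies and are read here as the level of C4 as a whole. Adding the rows could not change the C4B values, because C4A was 0 in every library.

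CFB and CFP, which act in the alternative route, were near the limit of detection in many libraries, and CFD was low. CFB, factor B, the protease subunit of the alternative C3 convertase (chromosome 6, 31945650 to 31952084, plus strand), had 4.87, 6.59 and 0.499 CPM in DNL, no count in any OA library, and 0.898, 0.203 and 0 CPM in WT. The DNL libraries disagreed, and replicate 3 lay within the range of WT. Over the 3 libraries of a group the counts of CFB were 269 for DNL, 0 for OA and 45 for WT. The pooled DNL level was thus at least 64.4-fold that of OA, taking 3 counts over the OA group as the floor. Most of the DNL counts came from replicates 1 and 2, and replicate 3 alone, at 0.499 CPM, would give a much smaller bound. The test called CFB between DNL and OA (adjusted p = 0.0314), and that call was lost when any of DNL replicate 1 or 2, OA replicate 1, 2 or 3, or WT replicate 2 was left out (adjusted p = 0.0537 to 0.0815). DNL against WT was not called for CFB (adjusted p = 0.0921), but was without DNL replicate 3 (adjusted p = 0.026). OA against WT was not called for CFB either (adjusted p = 0.207), and most WT counts came from replicate 1. CFD, factor D, which cleaves factor B, ranged from 2.13 to 3.32 CPM in DNL, 2.73 to 3.92 CPM in OA and 0.183 to 2.81 CPM in WT and was called in no comparison (adjusted p = 0.304 to 0.725). CFP, properdin, which stabilises the alternative convertase, was not tested, with 0 counts over the DNL libraries, 6 over OA and 2 over WT.

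Among the terminal components the direction in DNL turned: C5 and the subunits of C8 were lower in both treatments than in WT, and C7 was higher in DNL. C5 (chromosome 9, 120952335 to 121050276, minus strand), which yields the inflammatory fragment C5a and the first piece of the pore, had 324, 326 and 327 CPM in DNL, 79.3, 76.6 and 79.6 CPM in OA, and 583, 581 and 546 CPM in WT. The groups were widely separated, with WT highest. C5 fell 1.75-fold in DNL (log2 fold change -0.81, SE 0.0371, adjusted p = 1.64e-09) and 7.28-fold in OA (log2 fold change -2.86, SE 0.0411, adjusted p = 7.88e-14). C8A, a pore-inserting subunit of C8, had 13.9, 14.3 and 11.9 CPM in DNL, 3.95, 2.17 and 1.90 CPM in OA, and 24.2, 25.0 and 22.9 CPM in WT. It too kept the order WT, DNL, OA from high to low, with a log2 fold change of -0.85 in DNL (SE 0.157, adjusted p = 0.000541) and -3.18 in OA (SE 0.194, adjusted p = 2.1e-08). C8B, the subunit that binds the growing complex, had 3.39, 3.79 and 3.28 CPM in DNL, 1.58, 1.75 and 0.831 CPM in OA, and 6.72, 7.31 and 6.80 CPM in WT. Its order was the same, with a log2 fold change of -0.997 in DNL (SE 0.209, adjusted p = 0.00133) and -2.24 in OA (SE 0.233, adjusted p = 2.86e-06). C8G, the lipocalin-like subunit, had 3.94, 2.79 and 4.99 CPM in DNL, 5.84, 4.45 and 4.16 CPM in OA, and 9.41, 9.58 and 9.73 CPM in WT. Here DNL and OA overlapped below WT, and the log2 fold changes against WT were -1.28 in DNL (SE 0.201, adjusted p = 0.000144) and -0.99 in OA (SE 0.204, adjusted p = 0.001). With OA replicate 1 as the only OA library, C8G in OA was no longer called (log2 fold change -0.71, adjusted p = 0.0528).

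C7, which anchors the forming pore in the membrane, was at 2.71 to 3.74 CPM in DNL, 0.158 to 0.831 CPM in OA and 0.414 to 0.951 CPM in WT. Within OA, C7 was highest in replicate 3, as MASP1 was. It was 5.19-fold higher in DNL than in WT (log2 fold change 2.38, SE 0.434, adjusted p = 0.000467), a call that was lost when all libraries were thinned to the depth of the shallowest (adjusted p = 0.0609). C6, which joins C5b before C7, summed to 16 counts for DNL, 13 for OA and 11 for WT. C9, which forms the wall of the pore, summed to 1 count for DNL, 3 for OA and 13 for WT, and neither gene was tested. Thus 5 of the 7 terminal components were tested. In DNL relative to WT 4 were lower and 1 higher, beside 26.8% and 27.1% of all genes tested. In OA relative to WT 4 were lower, beside 29.7% of all genes tested.

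The ratio of C3 to C5 transcripts, taken within each library, was 26.5, 25.7 and 24.4 in DNL, 23.3, 23.5 and 21.9 in OA, and 6.53, 6.43 and 6.65 in WT. Both treatments lay far above WT, and all DNL libraries lay above all OA libraries. The ratio rests on counts and not on counts per length, so it compares groups and not the abundance of the genes.

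**Figure D3:**
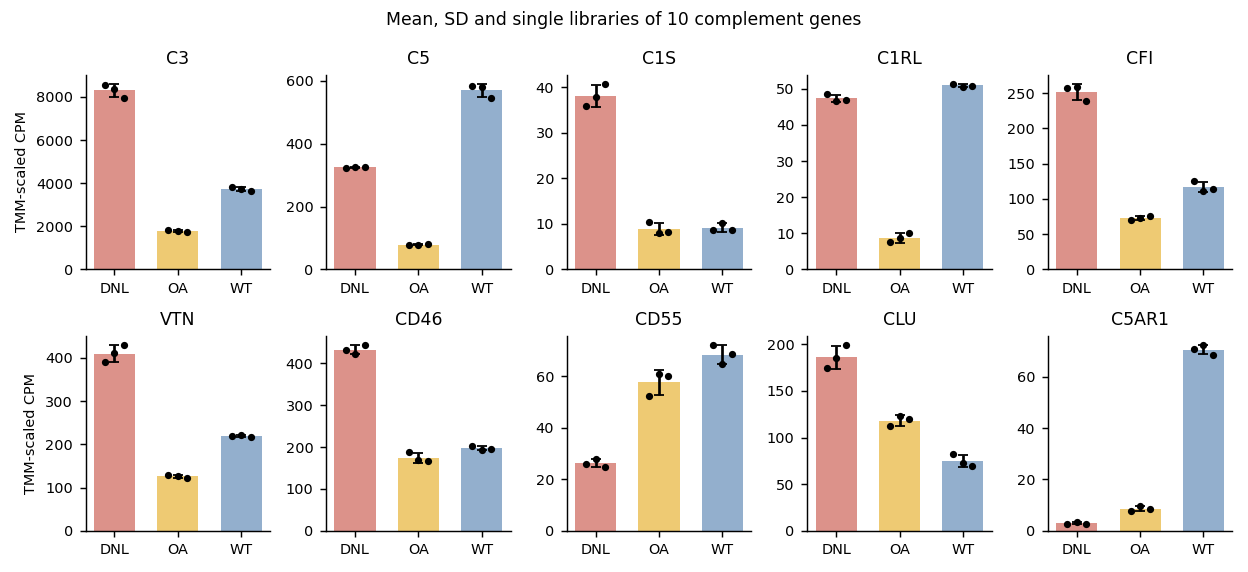
Level in CPM (y axes starting at 0) of the complement genes with large or contrasting differences, as bars of the group mean with the standard deviation over 3 libraries and a point for each library, in the order DNL, OA, WT. C3 averages 8302 CPM in DNL, 1799 in OA and 3726 in WT, while C5 averages 325 CPM in DNL, 78.5 in OA and 570 in WT.

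Of the 7 soluble regulators, CFI, C4BPA and VTN were, like C3, higher in DNL and lower in OA than in WT. CFI, factor I, the protease that cuts C3b and C4b (chromosome 4, 109740694 to 109802179, minus strand), had 258, 259 and 238 CPM in DNL, 70.7, 73.2 and 75.5 CPM in OA, and 125, 111 and 115 CPM in WT. The groups were separate in the same order as for C3. CFI was 2.15-fold higher in DNL than in WT (log2 fold change 1.11, SE 0.0537, adjusted p = 2.88e-09) and lower in OA (log2 fold change -0.68, SE 0.0562, adjusted p = 3.47e-07). C4BPA and C4BPB encode the alpha and beta chains of C4b-binding protein, a cofactor of factor I, and they parted in DNL. C4BPA (chromosome 1, 207104262 to 207144972, plus strand) had 67.0, 70.2 and 66.5 CPM in DNL, 23.2, 19.4 and 18.8 CPM in OA, and 50.1, 46.8 and 47.4 CPM in WT. C4BPB (chromosome 1, 207088842 to 207099993, plus strand) had 31.9, 40.1 and 33.9 CPM in DNL, 34.7, 21.6 and 21.9 CPM in OA, and 57.8, 54.4 and 61.5 CPM in WT. The alpha chain was highest in DNL, whereas the beta chain was highest in WT, with DNL and OA overlapping. In DNL, C4BPA rose by 0.50 on the log2 scale (SE 0.072, adjusted p = 7.05e-05) and C4BPB fell by 0.72 (SE 0.16, adjusted p = 0.00361). In OA, C4BPA fell by 1.23 (SE 0.079, adjusted p = 3.13e-08) and C4BPB by 1.16 (SE 0.168, adjusted p = 0.000191). The ratio of C4BPA to C4BPB within a library was accordingly 2.10, 1.75 and 1.96 in DNL, 0.670, 0.899 and 0.859 in OA, and 0.866, 0.860 and 0.771 in WT, so that DNL stood apart while OA and WT overlapped.

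VTN, vitronectin, which keeps the terminal complex from entering membranes (chromosome 17, 28367276 to 28373091, minus strand), had 390, 411 and 429 CPM in DNL, 129, 126 and 123 CPM in OA, and 220, 222 and 216 CPM in WT. Its groups did not overlap and ran in the order of C3, with log2 fold changes of 0.90 in DNL (SE 0.0414, adjusted p = 1.62e-09) and -0.80 in OA (SE 0.0428, adjusted p = 5.96e-09). CLU, clusterin, with the same action on the terminal complex, had 175, 185 and 199 CPM in DNL, 112, 123 and 120 CPM in OA, and 81.9, 72.7 and 69.5 CPM in WT. Unlike VTN, CLU was above WT in both treatments, 2.49-fold in DNL (log2 fold change 1.32, SE 0.0685, adjusted p = 5.29e-09) and 1.58-fold in OA (log2 fold change 0.66, SE 0.0694, adjusted p = 3.03e-06). SERPING1, the inhibitor of the C1 proteases, was low, at 0.499 to 2.13 CPM in DNL, 0 to 0.791 CPM in OA and 1.21 to 1.75 CPM in WT, and was called in no comparison. Its OA libraries all lay below WT (adjusted p = 0.0657), and without OA replicate 2 the difference was called (log2 fold change -3.24, adjusted p = 0.0158). With OA replicate 1, which had no SERPING1 count, as the only OA library, SERPING1 was called lower in OA than in WT (adjusted p = 0.00705) and higher in DNL than in OA (adjusted p = 0.00668). CFHR3, a plasma protein of the factor H-related family, did not exceed 0.878 CPM in any library and was not called (adjusted p = 0.244 to 0.658).

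The promoters of 4 of these regulators and of the receptor C5AR1 are shown because they contrast genes that moved apart: the chains of C4b-binding protein, CFI and VTN, which followed C3, and C5AR1, which fell most. Each is the 250 bases before and 50 after the first listed RefSeq start (GRCh38.p14), 5′ to 3′ on the strand of the gene. The windows are chr1:207103983-207104282 on the plus strand for C4BPA, chr1:207088610-207088909 on the plus strand for C4BPB (the first of 3 listed starts), chr4:109801950-109802249 on the minus strand for CFI, chr17:28370258-28370557 on the minus strand for VTN and chr19:47309611-47309910 on the plus strand for C5AR1. Capitals mark matches, on either strand, to the letters TTCNNNGAA (a STAT site), GAAA, any 2 bases and GAAA (an interferon response element), GGG, any 2 bases and TTTCC (an NF-kB site), GTTAAT (part of an HNF1 site) and AGGTCA (part of a nuclear receptor site).
C4BPA: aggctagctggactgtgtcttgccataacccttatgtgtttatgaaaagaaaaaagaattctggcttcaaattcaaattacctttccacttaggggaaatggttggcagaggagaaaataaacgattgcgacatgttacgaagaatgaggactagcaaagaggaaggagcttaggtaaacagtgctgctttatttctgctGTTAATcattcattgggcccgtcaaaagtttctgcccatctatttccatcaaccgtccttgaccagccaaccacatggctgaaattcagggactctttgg
C4BPB: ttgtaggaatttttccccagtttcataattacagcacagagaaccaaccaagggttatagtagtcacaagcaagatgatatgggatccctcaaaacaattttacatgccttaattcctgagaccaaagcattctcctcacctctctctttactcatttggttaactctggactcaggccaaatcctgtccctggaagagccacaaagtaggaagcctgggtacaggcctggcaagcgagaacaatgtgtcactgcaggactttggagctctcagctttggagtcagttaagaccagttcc
CFI: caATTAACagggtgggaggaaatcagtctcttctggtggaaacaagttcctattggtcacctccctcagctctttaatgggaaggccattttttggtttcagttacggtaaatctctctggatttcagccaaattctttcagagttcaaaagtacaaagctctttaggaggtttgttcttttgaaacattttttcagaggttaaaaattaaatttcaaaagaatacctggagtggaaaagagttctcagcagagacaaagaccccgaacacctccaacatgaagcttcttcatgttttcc
VTN: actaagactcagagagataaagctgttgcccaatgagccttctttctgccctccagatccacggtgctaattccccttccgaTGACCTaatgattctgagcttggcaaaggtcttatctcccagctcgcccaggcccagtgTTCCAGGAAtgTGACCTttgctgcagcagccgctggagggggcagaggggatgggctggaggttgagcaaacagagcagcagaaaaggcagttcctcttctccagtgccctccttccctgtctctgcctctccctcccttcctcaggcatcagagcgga
C5AR1: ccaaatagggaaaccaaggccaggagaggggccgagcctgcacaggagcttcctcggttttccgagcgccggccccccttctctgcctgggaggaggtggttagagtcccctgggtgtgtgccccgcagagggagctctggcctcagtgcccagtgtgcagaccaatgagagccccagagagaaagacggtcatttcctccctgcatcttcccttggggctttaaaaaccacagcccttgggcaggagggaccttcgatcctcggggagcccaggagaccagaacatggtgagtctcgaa
GTTAAT matched in C4BPA at bases 201 to 206 and, on the reverse strand, in CFI at bases 3 to 8. VTN held TTCNNNGAA at bases 142 to 150 and the reverse of AGGTCA at bases 83 to 88 and 153 to 158. None of the 5 motifs was found in the windows of C4BPB and C5AR1. Over the first listed promoters of the 25 members that had one, TTCNNNGAA matched 7 (C1RL, C7, CD59, CFB, MASP2, MBL2 and VTN), AGGTCA matched 8, GTTAAT matched 2, the interferon response element matched 1 (CFB) and the NF-kB site matched 0. Among all 35116 listed promoters the shares were 7.66%, 13.8%, 6.88%, 3.57% and 1.91% in the same order. Genes with TTCNNNGAA included some that rose in DNL (C7, CD59, MBL2 and VTN) and 1 that fell (MASP2).

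The membrane regulators shield the cell that carries them, and in DNL they diverged. CD46, a cofactor of factor I on the cell surface (chromosome 1, 207752057 to 207795513, plus strand), had 431, 422 and 443 CPM in DNL, 188, 170 and 166 CPM in OA, and 203, 193 and 196 CPM in WT. DNL was far above both other groups, and OA lay just below WT. CD46 was 2.19-fold higher in DNL than in WT (log2 fold change 1.13, SE 0.0477, adjusted p = 8.27e-10). Its small decrease in OA (log2 fold change -0.18, SE 0.0485, adjusted p = 0.00686) was not called with library totals as the only scaling (adjusted p = 0.0839), in thinned libraries (adjusted p = 0.156) or with OA replicate 1 as the only OA library (adjusted p = 0.298). CD55, decay-accelerating factor, which takes convertases apart (chromosome 1, 207321376 to 207386804, plus strand), had 25.9, 27.9 and 24.8 CPM in DNL, 52.2, 61.0 and 60.0 CPM in OA, and 72.0, 64.7 and 68.8 CPM in WT. It was lowest in DNL, where it fell 2.62-fold (log2 fold change -1.39, SE 0.0758, adjusted p = 8.44e-09). In OA the log2 fold change of CD55 was -0.25 (SE 0.0738, adjusted p = 0.0114), a call lost without WT replicate 1 (adjusted p = 0.0598) and in thinned libraries (adjusted p = 0.0775). The ratio of CD46 to CD55 was 16.6, 15.1 and 17.8 in the DNL libraries, 3.61, 2.78 and 2.77 in OA, and 2.82, 2.99 and 2.85 in WT. CD59, which blocks the last step of pore formation (chromosome 11, 33703010 to 33736491, minus strand), had 329, 331 and 349 CPM in DNL, 223, 205 and 223 CPM in OA, and 169, 164 and 163 CPM in WT. It rose in both treatments, 2.03-fold in DNL (log2 fold change 1.02, SE 0.0437, adjusted p = 8.85e-10) and 1.31-fold in OA (log2 fold change 0.39, SE 0.0441, adjusted p = 6.19e-06).

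The receptor for C5a had the largest called change of any tested member in DNL, and in OA it was exceeded by C8A. C5AR1, a G protein-coupled receptor best known on myeloid cells (chromosome 19, 47290023 to 47322066, plus strand), had 2.80, 3.33 and 2.58 CPM in DNL, 7.66, 9.55 and 8.31 CPM in OA, and 70.8, 72.3 and 68.7 CPM in WT. The 3 groups were far apart, DNL below OA and both far below WT. C5AR1 was 24.7-fold lower in DNL than in WT (log2 fold change -4.63, SE 0.11, adjusted p = 4.48e-12) and 8.15-fold lower in OA than in WT (log2 fold change -3.03, SE 0.0997, adjusted p = 7.72e-11). C3AR1, the receptor for C3a, had no count in any library. The summed level of 12 macrophage and other leukocyte markers was 1621 to 1714 CPM in DNL, 1060 to 1095 CPM in OA and 981 to 991 CPM in WT, nearly all of it LYZ (lysozyme), and its part in the result was not tested. The myeloid genes CSF1R, AIF1, SPI1 and TYROBP did not exceed 0.165 CPM in any library. Other genes of that list were expressed: CD68 had 29.9 to 33.7 CPM in DNL, 39.5 to 52.8 CPM in OA and 39.4 to 41.6 CPM in WT, and FCER1G lay between 1.32 and 3.68 CPM in all libraries. CD14, a receptor that hepatocytes also make, had 5.57 to 7.52 CPM in DNL, 0.237 to 0.356 CPM in OA and 2.20 to 3.22 CPM in WT, higher in DNL (log2 fold change 1.16, adjusted p = 0.000652) and lower in OA than in WT (-3.31, adjusted p = 1.3e-06).

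Set directly against OA, DNL had higher levels of most tested members. The largest called differences among members of at least 5 CPM were those of C1RL (log2 fold change 2.46, SE 0.0887, adjusted p = 9.02e-11), C8A (2.34, SE 0.197, adjusted p = 3.2e-07) and C3 (2.21, SE 0.0412, adjusted p = 4.26e-13). C1S differed by 2.11 (SE 0.123), C5 by 2.05 (SE 0.0404), MBL2 by 1.98 (SE 0.102), C4B by 1.82 (SE 0.0806), C2 by 1.81 (SE 0.325) and CFI by 1.78 (SE 0.0568), each called. Only CD55 (log2 fold change -1.14, SE 0.0777, adjusted p = 3.68e-08) and C5AR1 (-1.60, SE 0.122, adjusted p = 1.12e-07) were called lower in DNL than in OA. The calls of C4BPB (log2 fold change 0.44, adjusted p = 0.0469) and MASP2 (0.81, adjusted p = 0.0212) were the least secure. C4BPB kept its call in 2 of 9 fits that each left out 1 library, with a log2 fold change of 0.29 to 0.70, and 0.70 without OA replicate 1 (adjusted p = 8.02e-05). MASP2 kept it in 5 of 9, with 0.62 without OA replicate 3 (adjusted p = 0.0527). With OA replicate 1 as the only OA library the call was lost for C4BPB (log2 fold change 0.017, adjusted p = 0.927), MASP2 (0.21, adjusted p = 0.552) and CFB (adjusted p = 0.202). C8B between DNL and OA was no longer called in thinned libraries (log2 fold change 0.67, adjusted p = 0.345). By pattern, 7 tested members were higher in DNL and lower in OA than in WT (C3, C4B, C4BPA, CFI, MBL2, VTN and CD46), and 5 were higher in DNL and not called in OA (C1R, C1S, C2, C7 and MASP1). A further 8 were lower than WT in both treatments (C4BPB, C5, C8A, C8B, C8G, MASP2, CD55 and C5AR1), and CLU and CD59 were higher in both. The shares of all genes with these patterns were not computed. Both treatments were set against the same WT libraries, so the patterns only describe the members.

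Neighbouring members did not always move together. On chromosome 6, C2 was 3.31-fold and C4B 1.31-fold higher in DNL than in WT. CFB, whose exons share 23 bases with those of C2 on the same strand, had a fitted log2 fold change in the same direction (3.29, SE 1.34, adjusted p = 0.0921) that was called without DNL replicate 3. GENCODE release 29 also annotates a read-through gene over C2 and CFB on that strand, which was not analysed. The estimator may have divided some reads of C2 and CFB with it. On chromosome 12, C1R and C1S rose in DNL and their neighbour C1RL was not called, whereas in OA only C1RL of these 3 was called, lower. C8A and C8B, adjacent on chromosome 1, fell in both treatments, with log2 fold changes of -0.85 for C8A and -0.997 for C8B in DNL. In the regulator cluster on chromosome 1, C4BPA and CD46 rose in DNL while C4BPB and CD55 fell.

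**Figure D4:**
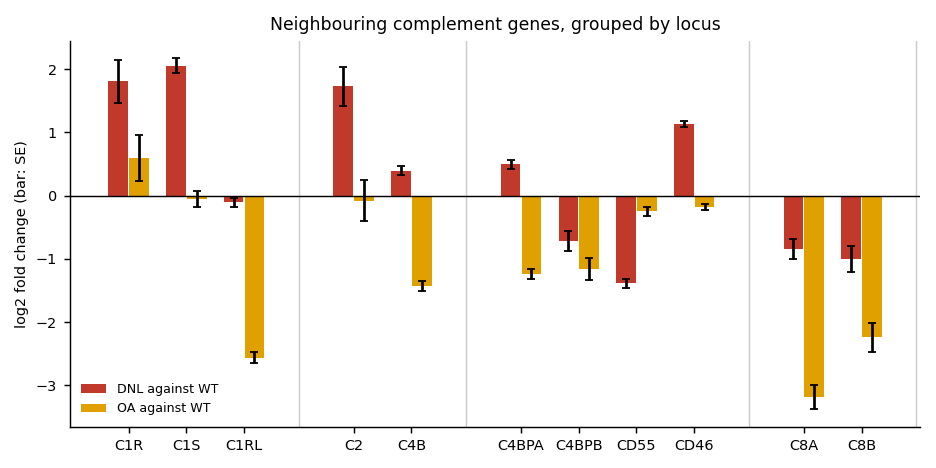
Log2 fold change against WT (bars on the y axis, with whiskers of 1 standard error) of tested complement genes that lie next to each other on a chromosome, grouped by locus, for DNL (red) and OA (orange). CFB and C4A are not drawn, because CFB had no counts in OA and C4A was not tested. The locus of C6, C7 and C9, of which only C7 was tested, is not drawn either. In DNL, C4BPA at 0.50 and CD46 at 1.13 lie above 0, and C4BPB at -0.72 and CD55 at -1.39 lie below it.

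Per length of the longest coding transcript in GENCODE release 29, the order of the members changed with treatment. C3 led in each group, at 1577 CPM per kilobase in DNL, 342 in OA and 708 in WT. In DNL it was followed by VTN at 191, CD46 at 128 and CFI at 117 CPM per kilobase, with C5 in 8th place at 59.6. In OA the next were C1QBP at 83.0, VTN at 58.6 and CD46 at 51.8 CPM per kilobase, with C5 in 12th place at 14.4. In WT they were C1QBP at 114, C5 at 104 and VTN at 102 CPM per kilobase, and the libraries of C5 (99.9 to 107) and VTN (101 to 103) overlapped. C5AR1 was in 23rd place in DNL at 1.26 CPM per kilobase and in 9th place in WT at 30.5. The isoforms that the cells express may be shorter, which would raise these values.

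A list of 32 other complement genes was examined alongside, of which 14 could be tested. Relative to WT, 4 of the 14 rose and 6 fell in DNL, beside 27.1% and 26.8% of all genes tested, and 1 rose and 7 fell in OA, beside 30.4% and 29.7%. Relative to OA, DNL was above for 4 and below for 2, or 42.9% called against 62.8% of all genes tested. The 3 genes of C1q were essentially silent, with no count for C1QB and C1QC and a single OA library with C1QA, and CRP, APCS and CR2 had no count either. PROS1, protein S, which binds the beta chain of C4b-binding protein, averaged 114 ± 1.82 CPM in DNL, 37.2 ± 6.84 CPM in OA and 74.0 ± 9.93 CPM in WT (SD, n = 3 each). In DNL it rose like C4BPA and unlike C4BPB (log2 fold change 0.62, adjusted p = 0.00106). In OA it fell (-0.98, adjusted p = 5.16e-05), as both chains did. CPN1, the catalytic chain of the carboxypeptidase that inactivates C3a and C5a, averaged 16.6 ± 0.196 CPM in DNL, 12.6 ± 0.819 CPM in OA and 38.0 ± 0.707 CPM in WT. It fell in both treatments, by 1.19 on the log2 scale in DNL (adjusted p = 3.93e-08) and by 1.60 in OA (adjusted p = 3.57e-09), and its partner chain CPN2 fell by 0.99 in OA (adjusted p = 1.3e-07). COLEC11, a lectin of the lectin route, was lower than in WT in both treatments (log2 fold change -0.96 in DNL, adjusted p = 0.000322, and -1.26 in OA, adjusted p = 4.14e-05), and COLEC12, a scavenger receptor with a lectin domain, was higher in OA than in WT (1.58, adjusted p = 0.00053), a call lost in thinned libraries (adjusted p = 0.0902). ITGB2, the beta chain of the receptors for C3b fragments, was higher in DNL than in OA (log2 fold change 1.96, adjusted p = 2.51e-07). CSMD3 was higher in DNL than in WT (log2 fold change 2.63, adjusted p = 0.00137), at 1.08 to 2.26 CPM against 0.102 to 0.402 CPM in WT. SUSD4, an inhibitor of complement, was lower in DNL than in OA (log2 fold change -2.07, adjusted p = 0.00547), at no more than 0.266 CPM in any DNL library. That call was lost without OA replicate 2 (log2 fold change -1.58, adjusted p = 0.0637) and with OA replicate 1 as the only OA library (-1.30, adjusted p = 0.243).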

How the data were processed

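Per the labels' protocols, total RNA of 9 HepG2 samples was depleted of ribosomal RNA and made into stranded libraries. The deposited table holds estimated counts per gene, computed by the authors, whose processing notes name FastQC 0.11.9, kallisto 0.48.0 and GRCh38. Neither annotation release nor strand setting is given in the sources used here, so reads of overlapping genes or near-identical copies may be divided among them. Estimated counts were rounded, filtered with filterByExpr, scaled by TMM and put through the quasi-likelihood F-test (edgeR 4.0.16, R 4.3.3, robust dispersion and fit), with 1 fit of the 9 samples and the group as the factor. P-values were adjusted by Benjamini-Hochberg over 13636 genes and called under 0.05, the common dispersion was 0.0112, and the SE was derived from the F statistic. No label says that replicates came from separate cultures, so p-values measure only the spread between these libraries, which may be technical. Libraries of a group differed by more than sampling noise (chi-square per degree of freedom 5.44 to 16.6), and none was merged.

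Groups came from sample titles. Every one of the 34 genes is accounted for, and those averaging at least 5 CPM in a group have values in every sample. From the lists of 32 other complement genes and 18 regulators of liver complement genes, the 2 genes per comparison and direction with the lowest adjusted p among those called were named, and the silent and C1q genes were named after their values were seen. The members and lists were chosen with earlier results of these data known. Coordinates are from GENCODE release 29, promoters from RefSeq (GRCh38.p14). The alternatives were RLE size factors, library totals, other low-count filters, limma-voom (limma 3.58.1), DESeq2 1.42.0, the 2 groups compared alone, thinning to the shallowest library, the replicate number as a block, C4A and C4B summed, leaving out each library, and OA replicate 1 as the only OA library, which was chosen after seeing the data. Summing C4A and C4B could change no value, because C4A had no count. The fit was tested on simulated data.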

Additional observations from a re-analysis of the deposited data

How the results depend on the processing

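Over 84 results of single complement genes, 1662 alternative values were computed: 1589 kept direction and side of the threshold, 39 lost a call, 19 gained one and 15 changed sign, none of these 15 called with all libraries and TMM scaling. Counts of called members held within 1.5 times throughout: 12 to 15 rose and 8 to 10 fell in DNL relative to WT, 2 rose and 15 to 19 fell in OA relative to WT, and DNL was above OA for 18 to 23 and below it for 2. These settings tested 25 to 32 members and 12316 to 16963 genes. Over all genes, 2505 to 3979 rose and 2591 to 5265 fell in DNL relative to WT. In OA relative to WT 3057 to 4604 rose and 3107 to 4128 fell. DNL was above OA for 2958 to 4382 genes and below it for 3276 to 5773. With library totals, 14 of 28 members rose and 10 fell in DNL relative to WT, beside 2505 and 5265 of 13636 genes. The sign changes were those of C1S in OA (0.019 with library totals, 0.21 thinned, 0.20 with OA replicate 1 as the only OA library, -0.18 to 0.046 leaving out 1 library), C2 in OA (0.42 with OA replicate 1 only, -0.38 to 0.16 leaving out 1 library), MASP1 in OA (-1.96 to 0.34 leaving out 1 library), C8G between DNL and OA (0.13 thinned) and SERPING1 in DNL (0.014 with DESeq2, 1.39 thinned, -0.35 to 0.40 leaving out 1 library), all log2 fold changes, and the cause was not tested. Library totals without composition scaling moved the median of all genes by -0.17 in DNL against WT, 0.07 in OA against WT and -0.23 in DNL against OA. The share of calls that were higher became 32.2%, 56.5% and 33.9%, against 50.3%, 50.5% and 50.8% with TMM. With library totals C1QBP (log2 fold change -0.30, adjusted p = 0.000736) and C1RL (-0.27, adjusted p = 0.00713) were called lower in DNL than in WT, while C1QBP (adjusted p = 0.212), C4BPB (adjusted p = 0.344) and MASP2 (adjusted p = 0.0834) lost their calls between DNL and OA.

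Replicate numbers showed no clear pairing of the libraries. Correlations of deviations from the group means between same-numbered libraries of different groups were -0.0212 to 0.106, with 1 of 9 pairs over 0.1. Between differently numbered libraries they were -0.108 to 0.0574, and 2 of 9 libraries correlated best with their own number. With replicate number as a block, 15 of 28 members rose and 9 fell in DNL against WT, beside 3644 and 3601 of 13636 genes. In OA relative to WT 2 members rose and 19 fell, beside 4077 and 4022 genes. DNL was above OA for 21 members and below it for 2, beside 4303 and 4169 genes. Depth limits the members with few or no counts in OA libraries, such as CFB, CFHR3 and SERPING1.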

Other observations

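Among 18 transcription factors, cytokine receptors and signalling genes known as regulators of complement genes in liver, 6 rose and 7 fell in DNL relative to WT, 4 rose and 8 fell in OA relative to WT, and DNL was above OA for 8 and below it for 6. In either direction 72.2%, 66.7% and 77.8% of the list were called, beside 53.8%, 60% and 62.8% of all genes tested. IL6R, the receptor chain for interleukin-6, averaged 30.8 ± 1.76 CPM in DNL, 158 ± 5.05 CPM in OA and 189 ± 2.18 CPM in WT (SD, n = 3 each), and fell by 2.61 on the log2 scale in DNL (adjusted p = 1.03e-12). SOCS3, a feedback inhibitor of that pathway, fell by 2.44 in DNL (adjusted p = 3.08e-07). OSMR, the oncostatin M receptor, was at 353 to 367 CPM in DNL, 149 to 155 CPM in OA and 271 to 281 CPM in WT, higher in DNL (log2 fold change 0.38, adjusted p = 1.47e-06) and lower in OA (-0.86, adjusted p = 8.02e-10). IL1R1, the interleukin-1 receptor, was 2.18-fold higher in DNL than in WT (log2 fold change 1.12, adjusted p = 2.39e-09). NR1H4, the bile acid receptor FXR, was at 39.4 to 56.3 CPM in DNL, 2.73 to 4.28 CPM in OA and 40.8 to 47.1 CPM in WT, and fell by 3.51 on the log2 scale in OA (adjusted p = 5.11e-09). RELA, a subunit of NF-kB, was higher in OA than in WT (log2 fold change 0.32, adjusted p = 0.000184) and lower in DNL than in OA (-0.57, adjusted p = 1.05e-06). IRF1, an interferon-induced factor, was higher in OA than in WT (log2 fold change 0.61, adjusted p = 0.00243), a call lost in thinned libraries (adjusted p = 0.154) and with OA replicate 1 as the only OA library (adjusted p = 0.158).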
